A study of Mus musculus with 2 samples.

Results

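Red blood cell microRNA loci were examined in small RNA libraries of mouse left cerebral cortex. The tissue came from females aged 14 days of the B6CASTF1/J strain, the first generation of a cross between C57BL/6J and CAST mice. The members were chosen by gene symbol in the GENCODE M21 annotation: Mir144, Mir451a, Mir451b, any symbol starting with Mir486, and Mir3107. This gave 5 of the 2202 annotated microRNA loci: Mir144, Mir451a and Mir451b on chromosome 11, and Mir486 and Mir3107 on chromosome 8. The study has 1 group of 2 biological replicates with no treatment, so values are compared among loci and between these libraries. The labels mention several females for replicate 1 and a single female for replicate 2, and give both the same donor record. The spread between the libraries may therefore be in part technical. Whether blood was washed out of the tissue is not given in the sources used here. In bulk tissue, fewer cells of a type and less RNA per cell cannot be told apart.

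Red blood cells lose their nucleus as they mature but keep a set of small RNAs, among which miR-451a, miR-144 and miR-486 are prominent. Mir144 and Mir451a are cut from 1 primary transcript that the erythroid factor GATA1 switches on. The hairpin of Mir451a is processed in an unusual way: its stem is too short for Dicer, and the Argonaute protein Ago2 cuts it instead. Mir486 lies in the ankyrin-1 gene, which encodes a protein of the red cell membrane skeleton, and it is also known from striated muscle. In a solid tissue these microRNAs are commonly read as a gauge of the blood it holds.

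The mature sequences on chromosome 11 are shown first, because the counts depend on which strand and which arm a read comes from. They are from RefSeq on GRCm38.p6, the patch series of mm10, which held 3 of the 5 members (Mir144, Mir451a and Mir451b). Each is written 5′ to 3′ with the seed, bases 2 to 8, in capitals. The first 3 lie on the plus strand, at chr11:78073010-78073032, chr11:78073047-78073066 and chr11:78073186-78073207, and miR-451b lies on the minus strand at chr11:78073219-78073239.
miR-144-5p: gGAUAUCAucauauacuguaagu
miR-144-3p: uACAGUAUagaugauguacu
miR-451a: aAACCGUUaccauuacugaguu
miR-451b: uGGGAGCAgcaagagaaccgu
The 4 seeds differ from each other. None of the 4 shares bases 2 to 8 with another of the 1679 mature microRNA names in the RefSeq table. One relative, miR-101a-3p, shares bases 2 to 7 with miR-144-3p, and its sequence is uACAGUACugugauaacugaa.

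Mir451a and Mir451b are annotated on the same 72 bases, chr11:78073170-78073241, on opposite strands. Their hairpins are shown with the mature microRNA in capitals, because they are exact reverse complements of each other and yet differ in where the mature RNA lies.
Mir451a: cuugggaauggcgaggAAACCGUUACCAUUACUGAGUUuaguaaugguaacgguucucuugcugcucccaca
Mir451b: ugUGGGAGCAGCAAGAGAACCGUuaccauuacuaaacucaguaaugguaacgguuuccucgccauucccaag
The mature miR-451a takes bases 17 to 38 of its hairpin and reaches across the loop, whereas miR-451b takes bases 3 to 23 of its own. On the chromosome the 2 mature RNAs do not overlap and are 11 bases apart. The hairpin folds back on itself, so the stretch aaccguuaccauuacu, of 16 bases, occurs in both hairpins. It covers all but 6 of the 22 bases of miR-451a. Aligned on that stretch, a full-length read of miR-451a differs from the Mir451b strand only at some of those 6 bases.

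Mir144 (chr11:78073005-78073070) ends 99 bases before Mir451a on the same strand. Neither has an annotated host gene on either strand in GENCODE M21. The nearest other gene is Eral1, a protein-coding gene on the minus strand that ends 134 bases beyond Mir451a. Mir486 (chr8:23142555-23142682, plus strand) lies in an intron of Ank1, the ankyrin-1 gene. Mir3107 (chr8:23142573-23142662, minus strand) lies within the Mir486 interval on the opposite strand, in an intron of the antisense transcript Gm15816. In both places a locus is therefore faced by a partner on the other strand, and only Mir144 has none.

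**Figure D1:**
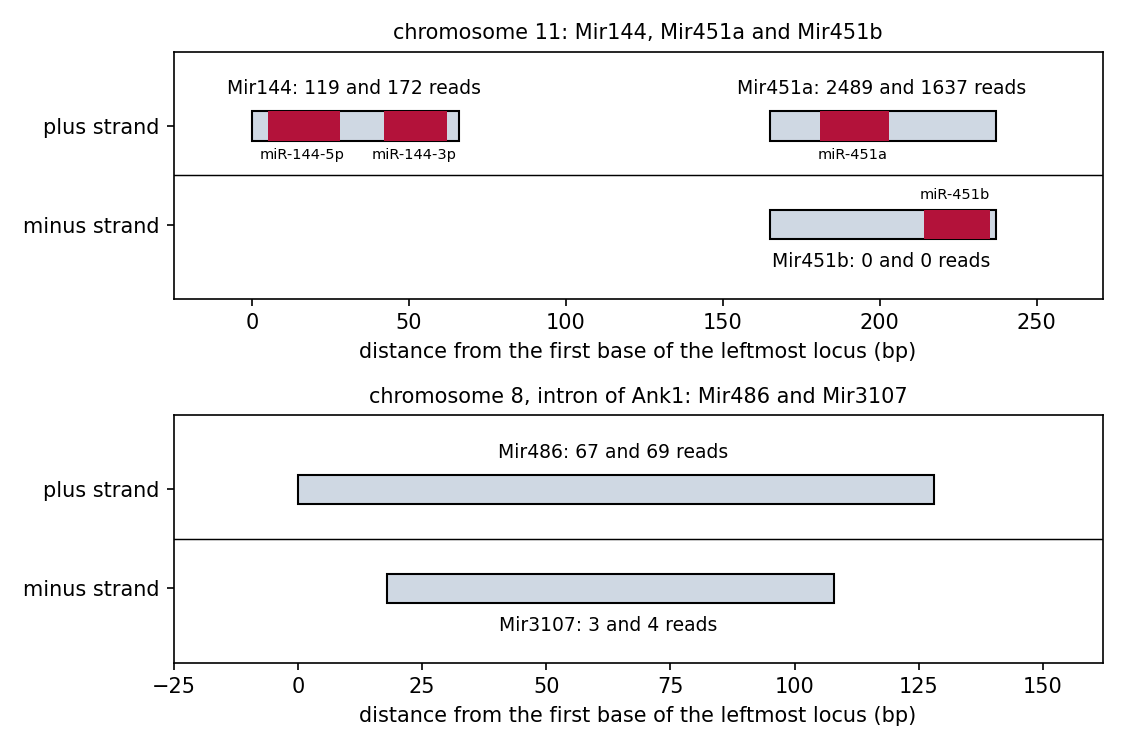
Map of the members by distance in base pairs from the first base of the leftmost locus, on the plus strand (top) and minus strand (bottom). Grey bars are annotated loci, red bars the mature microRNAs of the RefSeq table, and the numbers are RNA-strand reads in replicates 1 and 2. Nearly all counted reads at each overlapping pair fall on the plus-strand locus, 2489 and 1637 at Mir451a against 0 and 0 at Mir451b.

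Mir451a supplied most of the reads of the members in both libraries. Reads of the members are called red cell reads here by the choice of loci, and their cells of origin were not tested. Reads were counted on the RNA strand (the third column of the deposited files), and each level is a normalised read count (CPM), that is the reads of a locus per 1000000 reads assigned to microRNA genes. Levels are not divided by length, since a read covers a whole mature microRNA. Gene-assigned depth was 2740332 reads in replicate 1 and 3207941 in replicate 2. Intervals below are exact (Clopper-Pearson) at 95% and, like the limits for a count of 0, cover the counting error of reads alone. The labels mention no molecular identifiers, so amplified copies are not told apart from separate molecules.

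Mir451a, the locus with the best known red cell specificity of the 5, had 2489 reads in replicate 1 and 1637 in replicate 2. These are 908 CPM (interval 873 to 945) and 510 CPM (486 to 536), with a mean of 709 ± 281 CPM (SD, n = 2). Replicate 1 was the higher library, and the intervals did not overlap. By mean CPM Mir451a was at place 120 of the 2202 loci, at place 107 in replicate 1 and 138 in replicate 2. It stood above 84.0% of the 752 loci with a read in either library and above 69.2% of the 389 loci that had at least 10 reads in each library, which are called detected here.

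Mir144, made from the same primary transcript, had 119 reads in replicate 1 and 172 in replicate 2. Its level was 43.4 CPM (36.0 to 52.0) in replicate 1 and 53.6 CPM (45.9 to 62.3) in replicate 2, a mean of 48.5 ± 7.21 CPM (SD, n = 2). Here replicate 2 was the higher library and the intervals overlapped. The file gives 1 count for the locus, so reads of the 5p and 3p arms are not separated. Mir144 was at place 241 by mean CPM, below the median of 149 CPM over detected loci.

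Mir486 had 67 reads in replicate 1 and 69 in replicate 2, or 24.4 CPM (18.9 to 31.1) and 21.5 CPM (16.7 to 27.2). Its mean was 23.0 ± 2.08 CPM (SD, n = 2), at place 280, and the 2 libraries did not differ beyond counting error. Mir3107, its partner on the minus strand, had 3 and 4 reads (1.09 and 1.25 CPM) and was not detected by the minimum of 10 reads. Mir451b had 0 reads in either library, and a limit of 3 reads puts it below 1.09 CPM in the first library and 0.935 CPM in the second.

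The order of the members was the same in both libraries. Mir451a was 14.6-fold above Mir144 and 30.9-fold above Mir486 in mean CPM, and Mir144 was 2.11-fold above Mir486. The intervals of these 3 neighbours in the order did not overlap in either library. Mir3107 and Mir451b came last. The 5 loci summed to 2678 reads in replicate 1 and 1882 in replicate 2. This was 0.0977% of gene-assigned reads (0.0941 to 0.101%) in replicate 1 and 0.0587% (0.0560 to 0.0614%) in replicate 2, a mean of 0.0782 ± 0.0276% (SD, n = 2). Mir451a made up 92.9% of these reads in replicate 1 and 87.0% in replicate 2, so the summed red cell share largely followed this 1 locus.

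**Figure D2:**
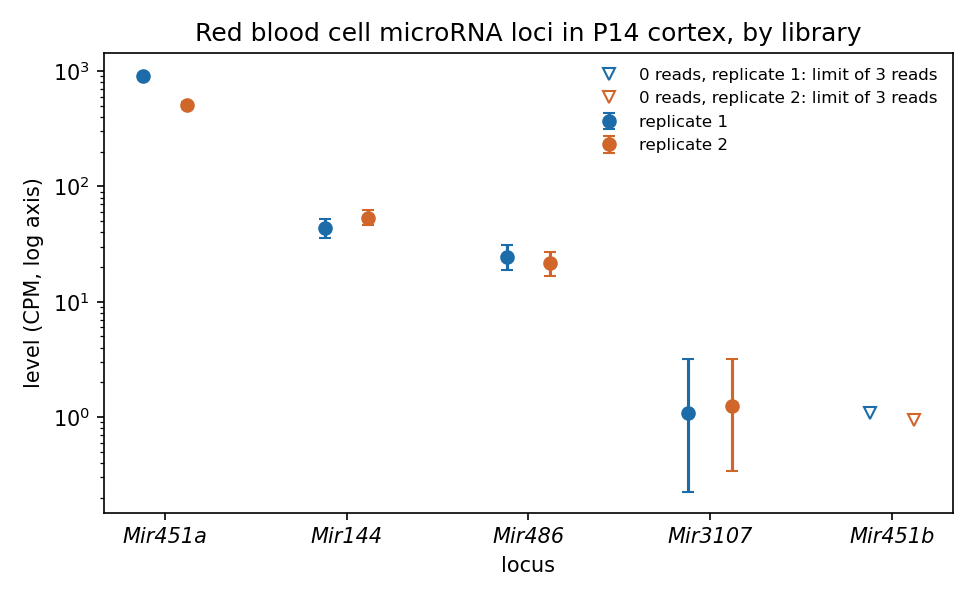
Level of each member in CPM (log axis) in replicate 1 (blue) and replicate 2 (orange), with exact 95% intervals of the counts as bars; open triangles mark the limit that 0 reads allow. Mir451a is the highest in both libraries (908 and 510 CPM) and the locus whose intervals do not overlap between them.

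Most of these reads are missing from counts made without strand. In the deposited column counted without strand, Mir451a, Mir451b, Mir486 and Mir3107 each had 0 reads in both libraries, and Mir144 had the same 119 and 172 reads as on its own strand. Counting without strand sets reads aside as ambiguous where 2 loci face each other. In that column 190370 reads of replicate 1 and 216847 of replicate 2 were ambiguous, and this row is 0 in the stranded columns. The reads of Mir451a equal 1.31% of that row in replicate 1 and 0.755% in replicate 2. In that column the red cell share would rest on Mir144 alone.

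In counted reads on the RNA strand, the overlapping pairs were strongly one-sided. Mir451b had 0 reads beside 2489 and 1637 of Mir451a, which, by a limit of 3 reads per library, allows a share of up to 0.121% in replicate 1 and 0.183% in replicate 2. Set against that limit, Mir451a was at least 830-fold higher in replicate 1 and at least 546-fold higher in replicate 2. Mir3107 had 3 of 70 reads of its pair in replicate 1 (4.29%, interval 0.893 to 12.0%) and 4 of 73 in replicate 2 (5.48%, 1.51 to 13.4%). Among all 32 pairs of loci that overlap on opposite strands, 26 had at least 20 reads on the more abundant side over both libraries. The less abundant side was empty in 18 of these 26, Mir451b included. Only 1 of the 26 had a larger minor share than the 4.90% of Mir3107 over both libraries, namely Mir24-1 with Mir3074-1 at 24.0%, named after its value was seen.

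The counts of Mir486 and Mir3107 are uncertain as levels of the microRNA. Each holds a stretch of at least 20 bases that is identical in the other, as do 1084 of the 2202 loci with some other locus. Reads that fit several places, 40.6% of the whole of replicate 1 and 37.9% of replicate 2, enter no locus count. How many of those reads came from miR-486 was not tested. Mir144, Mir451a and Mir451b share no such stretch with another microRNA locus. Folds to Mir486, the order of the members, the member shares and reads per Mir486 read therefore compare counted reads only. The same holds for the share of Mir3107 in its pair and for its place among the overlapping pairs.

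Mir451a differed between the libraries, whereas Mir144 and Mir486 did not pass the test. Library sizes were scaled by edgeR's trimmed mean of M values (TMM), the reads of a locus were compared with them by an exact binomial test (two-sided), and p-values were adjusted by the Benjamini-Hochberg method over the 389 detected loci. The test compares these 2 libraries and not conditions. Mir451a was lower in replicate 2, with a log2 ratio of −1.004 (2.01-fold; exact binomial test, adjusted p = 4.60e-108). Mir144 had a log2 ratio of 0.13 (adjusted p = 0.577) and Mir486 of −0.36 (adjusted p = 0.228), in the same exact test. Mir3107 and Mir451b had too few reads to enter it.

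One of the 3 detected members was thus called, against 58.4% of all detected loci. Lower calls made up 29.6% of the detected loci and higher calls 28.8%. A share of 1 in 3 is no larger than this background. The size of its ratio was less common: 44 of the 389 detected loci (11.3%) had an absolute log2 ratio at least as large, and 18 (4.63%) had a lower ratio. The SD of the log2 ratio over detected loci was 0.70. For Mir144, 81.0% of detected loci had at least its absolute ratio, and for Mir486 55.0% did.

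**Figure D3:**
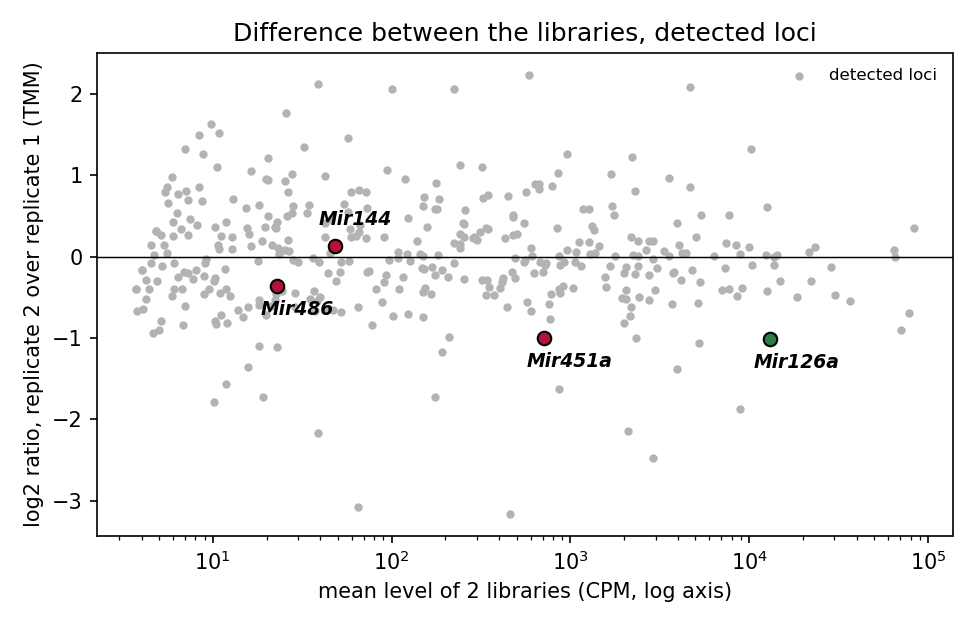
Log2 ratio of replicate 2 over replicate 1 after TMM scaling (y axis) against the mean level of the 2 libraries in CPM (x axis, log scale) for the 389 detected loci (grey). Mir451a at −1.004 and the endothelial Mir126a at −1.007 lie at the same height in the lower part of the cloud, and Mir144 (0.13) and Mir486 (−0.36) lie within it.

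Mir451a and Mir144 did not keep their proportion, although they come from 1 primary transcript. There were 20.9 Mir451a reads for each Mir144 read in replicate 1 and 9.52 in replicate 2, a change of 2.20-fold. This ratio does not depend on how the libraries are scaled. Of the 3 pairs among the detected members, which were compared after the values were seen, this one differed most between the libraries (two-sided Fisher's exact test on the reads, p = 1.38e-10, adjusted over the 3 pairs 4.14e-10). Mir451a to Mir486 changed from 37.1 to 23.7 reads per read (1.57-fold; Fisher's exact test, p = 0.0125, adjusted 0.0187). Mir144 to Mir486 was 1.78 in replicate 1 and 2.49 in replicate 2 and did not pass (Fisher's exact test, p = 0.116, adjusted 0.116). These p-values cover the counting of reads in 2 libraries and not the spread between animals or preparations.

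Other neighbouring loci give a scale for this. Over 104 pairs of adjacent detected loci on the same strand within 10 kb, the log2 ratios of the 2 neighbours differed by a median of 0.32. Mir144 and Mir451a differed by 1.14, and 11 of the 104 pairs differed by more, among them Mir221 with Mir222 at 1.41 and Mir34c with Mir34b at 2.06. The step in level from Mir144 to Mir451a, 14.6-fold in mean CPM, compares with a median of 6.18-fold between neighbours, and 38 pairs had a larger step. The pairs were not matched for read number, and counting error widens the differences of loci near the minimum of 10 reads. Whether neighbours in each pair share a transcript was not examined.

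**Figure D4:**
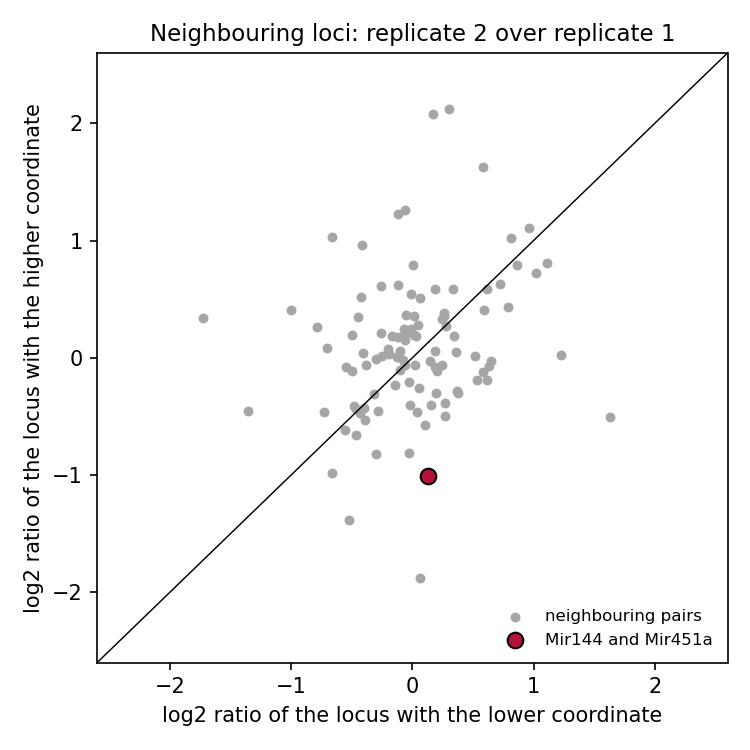
Log2 ratio of replicate 2 over replicate 1 for 104 pairs of adjacent detected loci on the same strand within 10 kb, with the locus of lower coordinate on the x axis and that of higher coordinate on the y axis; the line marks equal ratios. Mir144 (0.13) and Mir451a (−1.004) lie away from the line, with 11 pairs farther apart.

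Loci known from other cells of blood and vessels went in both directions between the libraries. Mir126a, an endothelial microRNA that platelets also carry, had nearly the same ratio as Mir451a. Mir126a had 45876 reads in replicate 1 and 30124 in replicate 2, or 16741 and 9390 CPM, with a log2 ratio of −1.007. There were 5.43 Mir451a reads per 100 of Mir126a in both libraries. In all, 7 of the other 388 detected loci lay within 0.1 of the log2 ratio of Mir451a. These included Mir126a and also the neuronal Mir138-1, at −1.07. Of the 5 endothelial and mural loci listed, 3 were detected, 2 of them lower and 1 higher in replicate 2, with a median log2 ratio of −0.28. Mir143, of smooth muscle, was lower at −0.28 and its neighbour Mir145a higher at 0.36. The list's share of reads was 2.12% in replicate 1 and 1.36% in replicate 2, 21.7 and 23.2 reads for each red cell read.

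Leukocyte and platelet loci went in both directions. Of 7 listed, 4 were detected, 1 higher and 2 lower in replicate 2 and 1 not past the test, with a median log2 ratio of −0.17. Mir150, of lymphocytes, was higher in replicate 2, from 518 to 1068 CPM (log2 ratio 0.87). Mir146 was lower, at 871 and 655 CPM (−0.58), and shares sequence with Mir146b. Mir155, of activated immune cells, was lower as well, at 121 and 82.6 CPM (−0.72). Mir142, found across blood leukocytes, was at 51.1 and 68.3 CPM and did not pass. Mir223, of myeloid cells and platelets, had 3 reads in replicate 1 and 45 in replicate 2 and so missed the minimum of 10. Its intervals, 0.226 to 3.20 CPM and 10.2 to 18.8 CPM, did not overlap, and replicate 2 was the higher library, opposite to Mir451a. The list's share was 0.157% in replicate 1 and 0.190% in replicate 2, or 1.60 and 3.23 reads per red cell read. Whether these reads came from cells of the blood or from cells resident in the cortex was not tested.

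A further list held microRNAs that are abundant in red cells without being specific to them. All 8 were detected, 2 higher and 5 lower in replicate 2 and 1 not past the test, with a median log2 ratio of −0.22, beside −0.0098 over all detected loci. Mir16-1 (646 and 496 CPM, −0.55) and its cluster neighbour Mir15a (508 and 374 CPM, −0.62) were lower in replicate 2, in the direction of Mir451a. Mir92-1 (517 and 1192 CPM, 1.03) and Mir25 (39.4 and 69.5 CPM, 0.65) were higher. Mir22 was the most abundant of the list at 3003 and 3077 CPM, and it was called lower in replicate 2 after TMM scaling (−0.14). CPM and list shares use library totals, whereas the ratios and calls use TMM-scaled sizes. The list's share was 0.526% in replicate 1 and 0.571% in replicate 2, beside 0.0977% and 0.0587% for the 5 red cell members. Of the 8 loci, 4 share a stretch of at least 20 bases, Mir16-1 with Mir16-2 and Mir92-1 with Mir92-2. Reads that fit both loci of such a pair are missing from these values. The part of blood in these differences was not tested.

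Loci of striated muscle, the other known site of miR-486, were at a level of the same order as Mir486. The 10 listed muscle loci summed to 120 reads (43.8 CPM) in replicate 1 and 188 reads (58.6 CPM) in replicate 2, which is 1.79 and 2.72 reads for each Mir486 read. Mir206 led at 28.8 and 31.2 CPM, beside 24.4 and 21.5 CPM for Mir486, followed by Mir499 at 9.12 and 16.8 CPM. Both were detected and neither passed the test (adjusted p = 0.865 and 0.0668, exact binomial test). Of the 10 loci 5 had no read, among them Mir1a-1 and Mir133a-1, but each of these 5 shares a stretch of at least 20 bases with another of them, so their reads would fit several places. From which cells the Mir486 reads came was not tested.

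**Figure D5:**
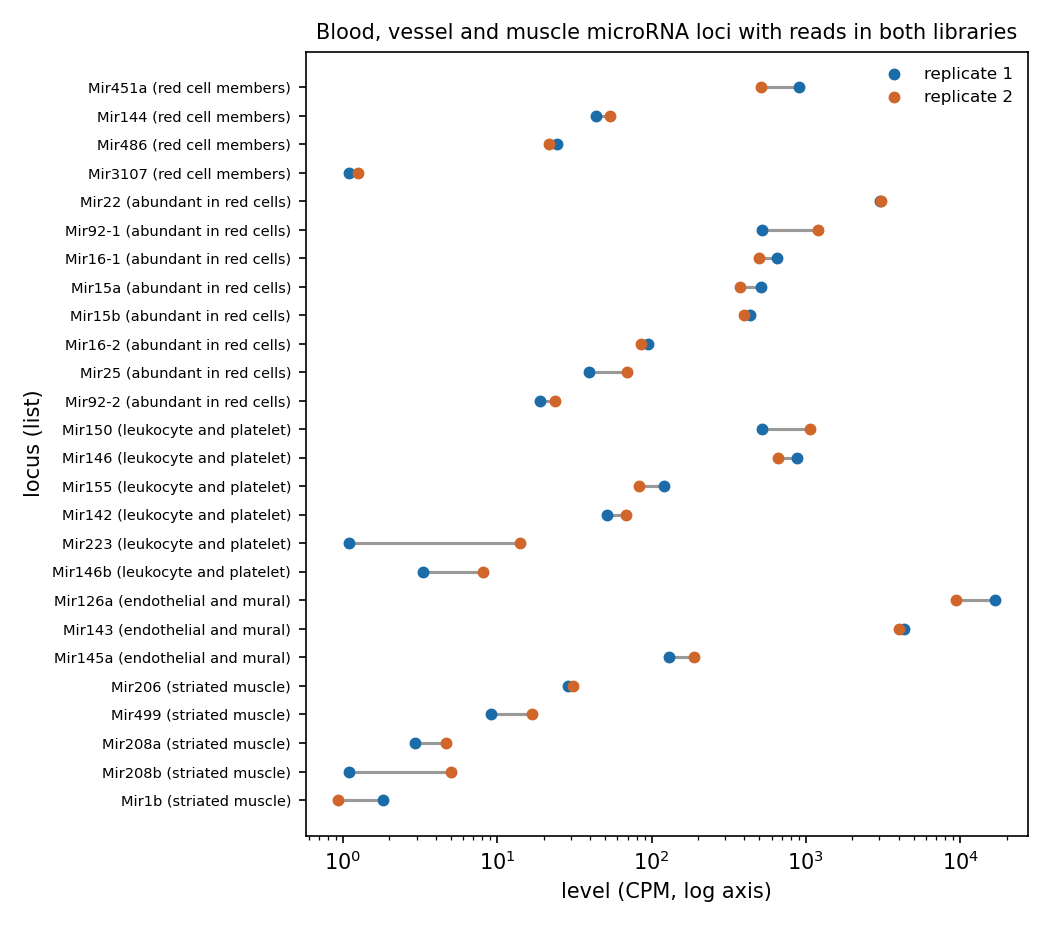
Levels in CPM (log axis) of the red cell members and of listed blood, vessel and muscle loci with a read in both libraries, in replicate 1 (blue) and replicate 2 (orange), joined by a line. Mir451a and Mir126a sit lower in replicate 2, whereas Mir150, Mir92-1 and Mir223 sit higher.

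The 4 detected loci closest to Mir451a, by Euclidean distance of log2(CPM + 1), were Mir338, Mir20a, Mir146 and Mir28a, at distances of 0.27, 0.36, 0.36 and 0.47. Mir338, known from oligodendrocytes, was at 923 and 613 CPM and Mir20a, of the miR-17-92 cluster, at 708 and 504 CPM. With 2 libraries this likeness rests on 2 values per locus.

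Mir101a, the locus that encodes the seed relative miR-101a-3p, had a higher level than Mir144 in both libraries and was higher in replicate 2. Its count, too, does not separate the arms. The locus had 154 reads in replicate 1 and 426 in replicate 2, or 56.2 and 132.8 CPM, with a log2 ratio of 1.07 (exact binomial test, adjusted p = 5.48e-16). Its mean of 94.5 ± 54.2 CPM (SD, n = 2) stands beside 48.5 ± 7.21 CPM for Mir144.

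Of 12 neuronal loci, read as markers of brain tissue and not of the cortex in particular, 8 were detected. Of these, 3 were higher and 3 lower in replicate 2 and 2 did not pass the test, with a median log2 ratio of 0.12. The share of the 12 was 3.34% in replicate 1 and 4.25% in replicate 2, 34.2 and 72.5 reads for each red cell read. Of the 12, 10 share a stretch of at least 20 bases with another locus. Their reads that fit several places are missing from these shares and from the levels that follow. Mir128-1 (5376 and 15159 CPM, log2 ratio 1.32) and Mir132 (9788 and 8428 CPM, −0.39) led the list by mean CPM. Mir128-2 (0.97) and Mir137 (0.17) were also higher in replicate 2, and Mir138-1 (−1.07) and Mir138-2 (−0.61) also lower. The 3 loci of the neuronal miR-124 had at most 12 reads each, and they share their sequence with one another.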

How the data were processed

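Small RNA below 30 nt was sequenced in 2 libraries. The authors deposited raw counts for each microRNA locus, made on mm10 with GENCODE M21 per the list of files beside them. Which aligner and counter they used is not given in the sources used here. The 3 unnamed count columns were read from their values as without strand, RNA strand and opposite strand. Library sizes leave out the 4 rows without a gene, which held 64.6% of the 7745369 reads of replicate 1 and 66.7% of the 9627908 of replicate 2.

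All 2202 identifiers matched GENCODE M21. TMM factors (edgeR 4.0.16, R 4.3.3) were computed over detected loci, and exact tests were run with SciPy 1.17.1. With 1 group there was no contrast between groups and no quasi-likelihood fit. Sequences are those of the reference strain, and CAST alleles were not examined.

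The members, lists and tests were chosen with earlier results of these data known. Named loci were the members, up to 2 leading loci of each list with further list members where a count turned on them, the 4 loci nearest to Mir451a, and neighbours within 10 kb. The other neighbouring pairs and Mir101a were named after their values were seen. Alternatives were the column without strand, DESeq2 1.42.0 size factors, library totals, total reads, minimums of 5, 50 and no reads, each replicate left out, and TMM over all loci, which was added later.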

Additional observations from a re-analysis of the deposited data

How the results depend on the processing

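The column without strand changed the most. It gave 0 CPM for Mir451a, Mir486 and Mir3107, a member share of 0.00521% in place of 0.0782%, and percentile 0 for Mir451a in place of 84.0. Mir144 kept its level there (52.1 CPM). Among detected loci only, the percentile of Mir451a was 69.2. With each replicate left out in turn, each value was that of the other library alone. Mir451a then ranged from 510 to 908 CPM, Mir144 from 43.4 to 53.6 and Mir486 from 21.5 to 24.4. The member share ranged from 0.0587 to 0.0977% and the percentile from 81.6 to 85.8.

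Under the 7 alternatives that gave a ratio, the log2 ratio of Mir451a lay between −1.004 and −0.83 and stayed past the threshold (largest adjusted p = 2.34e-74, exact binomial test). Mir144, with 8 such alternatives, lay between 0.13 and 0.30 and Mir486 between −0.36 and −0.18, neither past it. Changing the minimum number of reads alone leaves the ratio of a locus as it is and alters only the adjustment of its p-value. The number of loci called ranged from 210 of 283 tested, at the minimum of 50 reads, to 239 of 389, by total reads. This stands beside 227 of 389 in the main test. With no minimum, 236 of 752 were called, so the share called depended on the minimum. Scaling by library total moved the median log2 ratio to 0.16 and the calls to 159 higher and 77 lower, from 112 and 115. The column without strand gave no ratio for Mir451a or Mir486. With 1 group, no paired analysis was possible because there is no second group to pair with. Low counts limit Mir3107 and Mir451b, which had at most 4 reads in a library.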
